A study of Homo sapiens with 24 samples.

Results

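The expression of albumin and 9 other plasma carrier proteins was measured in HepaRG cells, a human hepatocellular carcinoma line whose cells can mature towards hepatocytes and bile duct cells. The members were chosen by name, as ALB, TTR, TF, AHSG, RBP4, SERPINA7, VTN, HPX, AMBP and GC, and were found by the RefSeq transcript given for each probe in the scanner files. All 10 were on the array, 10 of the 20503 genes with a RefSeq symbol there, with 1 probe each. The data were 24 one-colour Agilent arrays of total RNA, 8 groups of 3 replicates with 1 array each. Untransfected cells were left untreated (NT) or were given 200 ng/ml recombinant mouse Wnt3a (NT_WNT3A), 300 ng/ml mouse FZD8_CRD (FZ8CRD), or both agents at those doses (FZ8CRD_WNT3A). FZD8_CRD is the soluble Wnt-binding domain of the receptor Frizzled 8. Other cells were electroporated with 80 pmol of a negative control siRNA (siCTRL) or of a siRNA against CTNNB1, the gene of beta-catenin (siCTNNB1), each without and with 200 ng/ml Wnt3a (siCTRL_WNT3A and siCTNNB1_WNT3A). Before treatment the line was grown in William's E medium with fetal bovine serum, penicillin, streptomycin, insulin and hydrocortisone, and the agents acted for 72 h in serum-free medium with BSA. The comparison of control siRNA with no transfection holds the siRNA and the electroporation together, since no group was electroporated without siRNA, and 1 siRNA product stood for the loss of CTNNB1.

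Hepatocytes make most of the protein dissolved in blood plasma, and much of it serves to carry something else. Albumin holds the water of the blood in the vessels and carries fatty acids, bilirubin and drugs, while smaller and more selective carriers move thyroid hormone, retinol, iron, heme and vitamin D. The genes are switched on in the liver by factors such as HNF4A, the C/EBP family and FOXA proteins, and their transcripts are widely read as a measure of how far liver cells in culture have matured. Wnt proteins bind Frizzled receptors and, through beta-catenin and the TCF/LEF factors, change transcription in hepatocytes according to their place in the liver lobule.

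Levels below are log2 values of the spot signal relative to the 75th percentile of the same array, so that 0 is a signal equal to that percentile and a difference of 1 is a doubling in signal. Levels of different probes cannot be compared with each other on this scale, so comparisons run across groups for 1 gene at a time. The 75th percentile lay between 643 and 934 intensity units, and 58.3% to 66.5% of the spots of an array were well above background. All 10 members were well above background on 24 of 24 arrays, none was saturated, and none reached the floor of -6.13. AHSG came nearest to it, with a lowest level of -5.71. A difference was called when the p from limma, adjusted over the 24648 genes tested, was under 0.05. The test is limma's linear model, which shares information on the spread over all genes, and a value after ± is the SD of 3 arrays. Replicate 1 of every group was on slide 1, replicate 2 on slide 2 and replicate 3 on slide 3, so each difference could be read within each slide. It was also fitted with the slide as a block, which pairs the arrays. Each of the 8 groups had the same place on every slide, those without Wnt3a in row 1 and those with it in row 2. Group and place on the slide therefore cannot be told apart, within a slide or with the block. The comparisons share arrays: NT serves as control for Wnt3a, control siRNA and FZD8_CRD, and siCTRL for Wnt3a and CTNNB1 siRNA. Agreement between slides and overlap of arrays were counted for the members only, so such counts have no share over all genes beside them.

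The labels were checked against the data first. CTNNB1 lay at 3.41 ± 0.09 in siCTRL and at 0.38 ± 0.13 in siCTNNB1, and it fell with its siRNA by 3.03 on the log2 scale (adjusted p = 1.17e-09) without Wnt3a and by 3.02 (adjusted p = 7.76e-10) with it. The level was lower on 6 of the 6 arrays with CTNNB1 siRNA than on every other array. Of 12 hepatocyte markers, of which ALB and TTR are also members, 12 passed the filter used for testing, a signal well above background on the 3 arrays of 1 or more groups, and their summed signal ran from 196 to 1472 times the 75th percentile. Bile duct markers were present in part: 5 of 8 passed that filter, with the probe of KRT19 as the brightest, and EPCAM and CDH6 were among those that did not. Mesenchymal markers passed in 10 of 11 cases, all but THY1, endothelial markers in 4 of 6 (not STAB2 and CLEC4M) and leukocyte markers in 4 of 6 (CD163 was among those that did not pass). The summed signal of the endothelial list was at most 4.20 times the 75th percentile and that of the leukocyte list at most 6.75 times. These sums rest on different probes and cannot be compared between lists. In RNA from whole cultures, fewer hepatocyte-like cells and less RNA per such cell cannot be told apart.

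Some arrays stood apart from their group. Over all genes centred on their mean, 19 of 24 arrays correlated best with their own group and 5 with another. FZ8CRD replicate 3 had a mean r of 0.67 with the FZ8CRD_WNT3A arrays and of 0.15 with its own group. Its levels of TCF7, a Wnt target, and COL1A1, a fibrillar collagen chain, were -1.50 and 1.37, where the other 2 FZ8CRD arrays had -2.95 and -2.73 for TCF7 and -0.40 and -0.26 for COL1A1. The 3 arrays of NT_WNT3A also correlated less with each other than with another group: replicates 1 and 3 were nearest to NT (0.56 against 0.38, and 0.52 against 0.15) and replicate 2 to siCTRL_WNT3A (0.25 against 0.11). siCTNNB1_WNT3A replicate 3 was nearest to siCTNNB1 (0.35 against 0.26). Among the members the spread within groups was uneven. The median SD over the 10 members was 1.34 in NT and 1.00 in FZ8CRD, where that over all genes was 0.18 and 0.20, but 0.07 in FZ8CRD_WNT3A. For the members, tests with FZD8_CRD are therefore also given without FZ8CRD replicate 3, an alternative that was in part chosen after seeing the data. The other gene lists, and the results flagged for a closer look, are given with that array only.

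**Figure D1:**
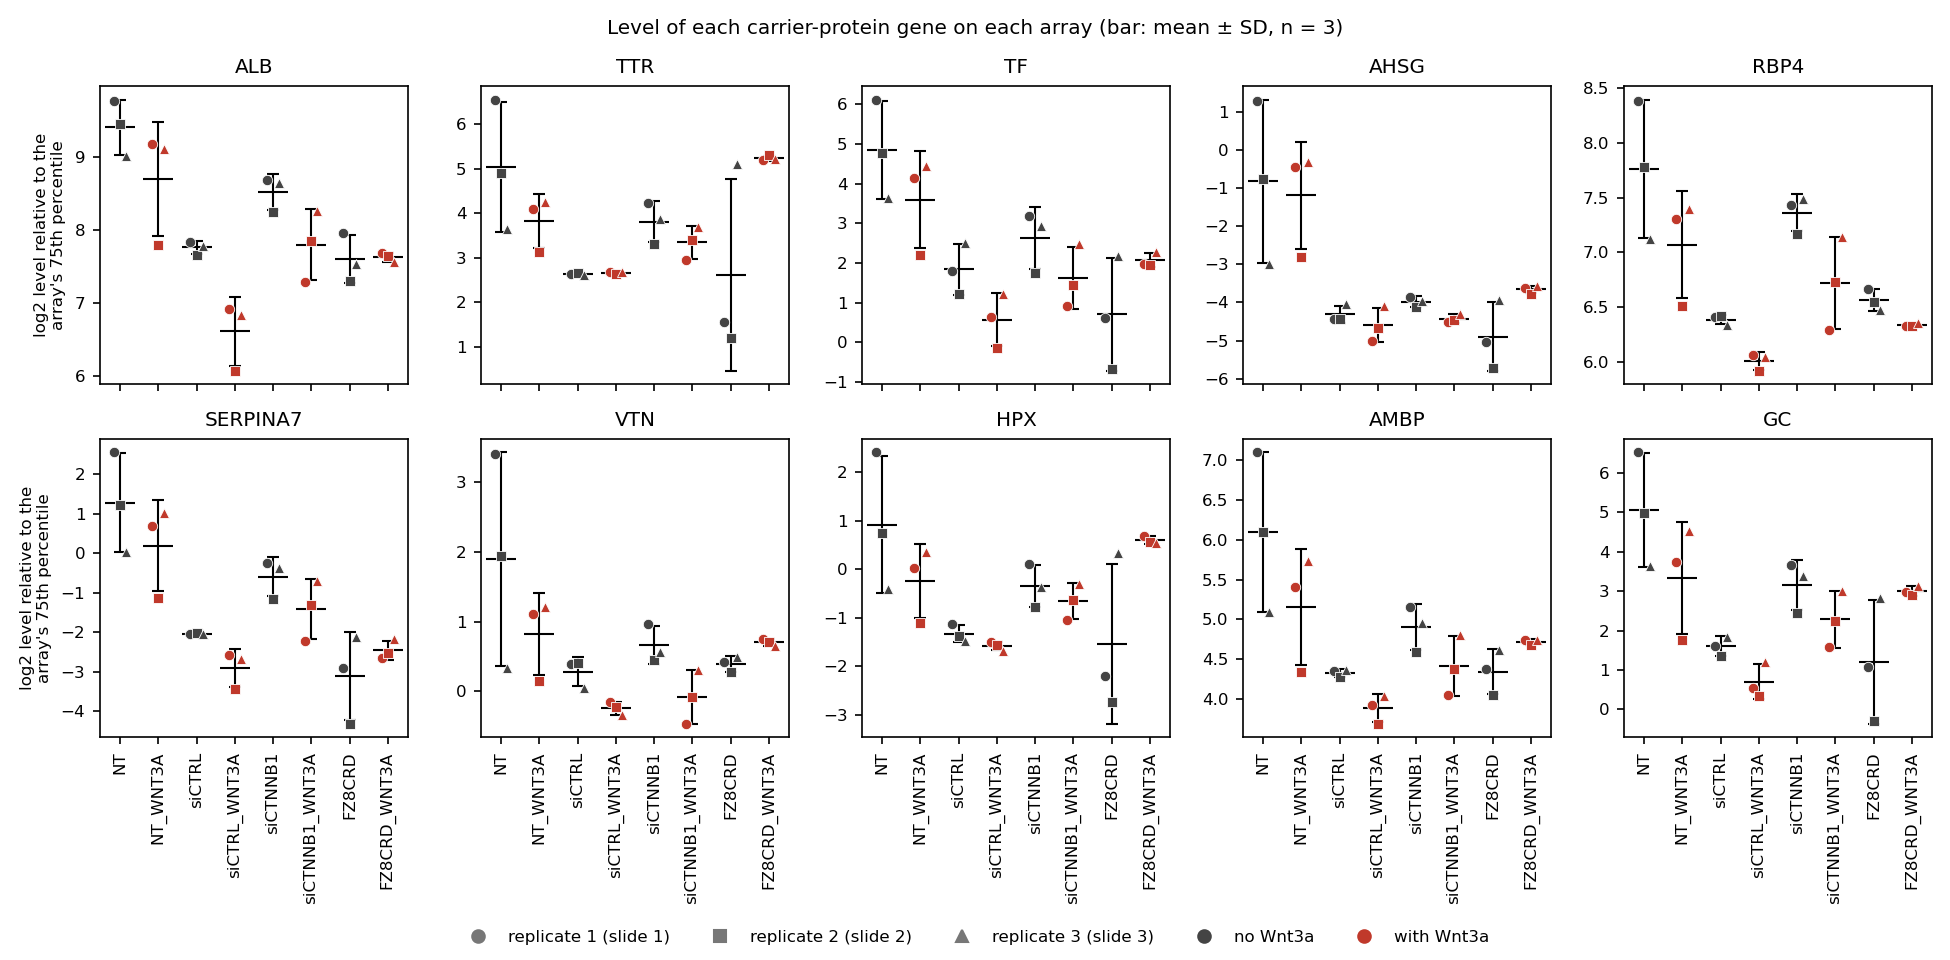
Level of each of the 10 genes on each of the 24 arrays, as log2 relative to the 75th percentile of the array, with 1 panel per gene and its own vertical axis; symbols mark the replicate, red marks Wnt3a, and bars give the mean and SD of 3 arrays. For 9 of 10 genes the highest mean is in NT, whose 3 arrays are widely spread, as with AHSG at 1.28, -0.75 and -3.00.

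ALB encodes serum albumin, the most abundant protein of plasma. Its level was 9.76, 9.45 and 9.01 on the NT arrays, 7.84, 7.66 and 7.79 on the siCTRL arrays and 8.68, 8.24 and 8.64 on the siCTNNB1 arrays, each in the order of replicates 1 to 3. In FZ8CRD it was 7.95, 7.30 and 7.54, in NT_WNT3A 9.18, 7.79 and 9.11, in siCTRL_WNT3A 6.92, 6.07 and 6.84, in siCTNNB1_WNT3A 7.29, 7.85 and 8.25 and in FZ8CRD_WNT3A 7.68, 7.64 and 7.56. The 3 untreated arrays were above every array of siCTRL and FZ8CRD, and the 3 arrays with control siRNA and Wnt3a were below every other array. In the order of the means, NT (9.41 ± 0.38) was followed by NT_WNT3A (8.70 ± 0.78), siCTNNB1 (8.52 ± 0.24), siCTNNB1_WNT3A (7.80 ± 0.49), siCTRL (7.76 ± 0.09), FZ8CRD_WNT3A (7.62 ± 0.06), FZ8CRD (7.60 ± 0.33) and siCTRL_WNT3A (6.61 ± 0.47). Of the 7 pairs of neighbours in that order, the arrays of 6 overlapped, and only FZ8CRD and siCTRL_WNT3A did not.

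TTR, RBP4 and SERPINA7 carry thyroid hormone and retinol. TTR encodes transthyretin, which binds thyroxine and the retinol-binding protein, RBP4 encodes that retinol-binding protein, and SERPINA7 encodes thyroxine-binding globulin. TTR stood at 6.56, 4.91 and 3.65 in NT, at 2.63, 2.67 and 2.63 in siCTRL, at 4.24, 3.32 and 3.87 in siCTNNB1 and at 1.55, 1.21 and 5.11 in FZ8CRD. With Wnt3a it stood at 4.11, 3.12 and 4.26 in NT_WNT3A, at 2.69, 2.64 and 2.68 in siCTRL_WNT3A, at 2.96, 3.41 and 3.70 in siCTNNB1_WNT3A and at 5.19, 5.30 and 5.23 in FZ8CRD_WNT3A. TTR was the single member whose highest mean was outside NT, in FZ8CRD_WNT3A (5.24 ± 0.06 against 5.04 ± 1.46 in NT), and the arrays of those groups overlapped. FZ8CRD replicate 3 lay just under the FZ8CRD_WNT3A arrays for TTR, and the other 2 FZ8CRD arrays were the lowest of the 24.

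RBP4 was measured at 8.39, 7.78 and 7.13 in NT, 6.41, 6.41 and 6.34 in siCTRL, 7.43, 7.17 and 7.49 in siCTNNB1 and 6.67, 6.55 and 6.47 in FZ8CRD. Under Wnt3a the values were 7.30, 6.51 and 7.40 in NT_WNT3A, 6.07, 5.92 and 6.05 in siCTRL_WNT3A, 6.29, 6.73 and 7.14 in siCTNNB1_WNT3A and 6.33, 6.33 and 6.35 in FZ8CRD_WNT3A. The siCTRL arrays were below the siCTNNB1 arrays for RBP4 with no overlap, and the NT arrays were above those of siCTRL and overlapped with those of siCTNNB1. SERPINA7 had means of 1.27 ± 1.25 in NT, -2.03 ± 0.01 in siCTRL, -0.60 ± 0.49 in siCTNNB1 and -3.11 ± 1.11 in FZ8CRD. Its means with Wnt3a were 0.19 ± 1.15 in NT_WNT3A, -2.89 ± 0.48 in siCTRL_WNT3A, -1.41 ± 0.76 in siCTNNB1_WNT3A and -2.45 ± 0.24 in FZ8CRD_WNT3A. The SERPINA7 arrays of NT, at 2.55, 1.23 and 0.04, were all above those of siCTRL, siCTNNB1 and FZ8CRD.

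TF, HPX and AMBP handle iron and heme. TF encodes transferrin, the iron carrier, HPX encodes hemopexin, which binds free heme, and AMBP encodes a precursor that is split into the heme-binding alpha-1-microglobulin and the protease inhibitor bikunin. HPX was at 2.41, 0.76 and -0.41 in NT, -1.14, -1.37 and -1.47 in siCTRL, 0.10, -0.77 and -0.37 in siCTNNB1 and -2.20, -2.74 and 0.34 in FZ8CRD. In the Wnt3a groups HPX was at 0.02, -1.10 and 0.36 in NT_WNT3A, -1.50, -1.56 and -1.68 in siCTRL_WNT3A, -1.05, -0.64 and -0.30 in siCTNNB1_WNT3A and 0.69, 0.57 and 0.53 in FZ8CRD_WNT3A. As with TTR, HPX was high on FZ8CRD replicate 3 and low on the other 2 arrays of that group. TF averaged 4.85 ± 1.24 in NT, 1.83 ± 0.65 in siCTRL, 2.62 ± 0.78 in siCTNNB1, 0.70 ± 1.43 in FZ8CRD, 3.60 ± 1.23 in NT_WNT3A, 0.57 ± 0.68 in siCTRL_WNT3A, 1.61 ± 0.79 in siCTNNB1_WNT3A and 2.07 ± 0.18 in FZ8CRD_WNT3A. AMBP averaged 6.10 ± 1.00 in NT, 4.33 ± 0.05 in siCTRL, 4.90 ± 0.29 in siCTNNB1, 4.34 ± 0.29 in FZ8CRD, 5.16 ± 0.73 in NT_WNT3A, 3.88 ± 0.17 in siCTRL_WNT3A, 4.41 ± 0.38 in siCTNNB1_WNT3A and 4.72 ± 0.04 in FZ8CRD_WNT3A. Both genes had their highest mean in NT and their lowest in siCTRL_WNT3A.

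GC encodes the vitamin D-binding protein, AHSG encodes fetuin-A, which keeps calcium phosphate in solution, and VTN encodes vitronectin, an adhesion protein that also binds the plasminogen activator inhibitor. GC had means of 5.05 ± 1.45 in NT, 1.61 ± 0.25 in siCTRL, 3.17 ± 0.64 in siCTNNB1, 1.21 ± 1.57 in FZ8CRD, 3.35 ± 1.42 in NT_WNT3A, 0.70 ± 0.45 in siCTRL_WNT3A, 2.28 ± 0.72 in siCTNNB1_WNT3A and 3.00 ± 0.12 in FZ8CRD_WNT3A. AHSG had means of -0.83 ± 2.14 in NT, -4.31 ± 0.23 in siCTRL, -3.98 ± 0.14 in siCTNNB1, -4.89 ± 0.90 in FZ8CRD, -1.19 ± 1.40 in NT_WNT3A, -4.59 ± 0.46 in siCTRL_WNT3A, -4.43 ± 0.12 in siCTNNB1_WNT3A and -3.65 ± 0.10 in FZ8CRD_WNT3A. VTN had means of 1.90 ± 1.54 in NT, 0.28 ± 0.20 in siCTRL, 0.66 ± 0.27 in siCTNNB1, 0.40 ± 0.11 in FZ8CRD, 0.82 ± 0.59 in NT_WNT3A, -0.24 ± 0.10 in siCTRL_WNT3A, -0.08 ± 0.39 in siCTNNB1_WNT3A and 0.70 ± 0.05 in FZ8CRD_WNT3A. The means of AHSG in NT and NT_WNT3A were above those of the other 6 groups. Across the 10 members, the lowest mean was in siCTRL_WNT3A for 7 and in FZ8CRD for 3. In the order of each gene's 8 means there were 70 pairs of neighbours, and the arrays of 60 overlapped.

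The members varied together from array to array. Over the 24 arrays the Pearson r between members had a median of 0.84, a lowest value of 0.50 and a highest of 0.98, and 45 of 45 pairs were above 0. These 24 arrays are 8 groups of 3, so the correlation holds the differences between groups as well as those between cultures and is given as a description. The mean of the 10 members, each centred on its own mean, was -1.16, -1.45 and -0.99 on the siCTRL_WNT3A arrays and 0.62, -0.12 and 0.41 on the siCTNNB1 arrays, and its highest value was that of NT replicate 1. Among 15965 other genes with a symbol, the 5 most like ALB over the 24 arrays were ORM1 (r = 0.988), ORM2 (0.984), KANK1 (0.960), SPINT3 (0.956) and SPSB1 (0.951). ORM1 and ORM2 encode the acid glycoproteins of plasma, which carry basic drugs. The 5 most like the mean of the members were F2 (r = 0.991), KNG1 (0.986), APOH (0.983), C4BPA (0.980) and SERPINA4 (0.979), of which F2 encodes prothrombin and KNG1 kininogen.

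Because the members varied together, the DNA before their start sites was read from RefSeq (GRCh38.p14), 250 bases before to 50 bases after each start. Of the 10 members 8 had an entry, with 11 windows in all; TTR and GC are named only. The letters searched on both strands were TTGCNNAA for C/EBP, CAAAGTCCA for HNF4, TGTTTAC for FOXA, CTTTGAT for TCF/LEF and TATAAA for the TATA box, and in the 4 windows printed no matches to different motifs overlapped. The C/EBP letters stood in 7 of the 8 members, ALB, TF, AHSG, RBP4, SERPINA7, VTN and HPX, which is 7 of their 11 windows, and in 10.5% of 35116 RefSeq windows of that length. The HNF4 letters stood in AHSG (1 of the 11 windows, and 0.384% of all) and the TATA letters in RBP4 and SERPINA7 (4 of the 11 windows, of which 2 of RBP4 overlap and share 1 stretch, and 11.5% of all). The FOXA letters (3.42%) and the TCF/LEF letters (2.62%) stood in 0 of the 8, which says only that those letters are not in these windows. The windows of ALB at chr4:73404037-73404336 on the plus strand, AHSG at chr3:186612810-186613109 on the plus strand, RBP4 at chr10:93601186-93601485 on the minus strand and SERPINA7 at chrX:106038678-106038977 on the minus strand are shown 5′ to 3′, ALB as the gene of albumin and the others as members with matches to at least 2 of the motifs, with the matched letters in capitals.
ALB: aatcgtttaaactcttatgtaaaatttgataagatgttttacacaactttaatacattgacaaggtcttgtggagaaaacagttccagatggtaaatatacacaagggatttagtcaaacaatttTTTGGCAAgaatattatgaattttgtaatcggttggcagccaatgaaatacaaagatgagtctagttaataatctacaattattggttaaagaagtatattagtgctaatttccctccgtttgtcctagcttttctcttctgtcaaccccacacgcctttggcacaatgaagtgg
AHSG: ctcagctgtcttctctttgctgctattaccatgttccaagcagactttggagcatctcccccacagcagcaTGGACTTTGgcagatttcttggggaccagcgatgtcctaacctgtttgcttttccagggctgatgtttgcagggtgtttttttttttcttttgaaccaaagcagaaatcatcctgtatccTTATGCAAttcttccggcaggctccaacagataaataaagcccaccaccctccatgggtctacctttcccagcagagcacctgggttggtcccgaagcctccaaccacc
RBP4: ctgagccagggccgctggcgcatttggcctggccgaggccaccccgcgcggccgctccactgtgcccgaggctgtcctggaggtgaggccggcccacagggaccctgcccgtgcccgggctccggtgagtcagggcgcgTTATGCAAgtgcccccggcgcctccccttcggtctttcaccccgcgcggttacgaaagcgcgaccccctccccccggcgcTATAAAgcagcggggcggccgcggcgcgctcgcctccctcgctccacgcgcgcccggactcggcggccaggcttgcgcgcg
SERPINA7: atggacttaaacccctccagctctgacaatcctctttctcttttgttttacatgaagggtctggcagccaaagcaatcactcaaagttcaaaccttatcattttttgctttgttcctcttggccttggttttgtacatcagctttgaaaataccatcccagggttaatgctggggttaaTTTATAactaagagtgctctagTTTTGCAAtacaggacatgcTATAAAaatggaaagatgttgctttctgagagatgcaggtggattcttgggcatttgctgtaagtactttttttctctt
The matches are descriptions of letters and not of bound sites. In ALB the C/EBP letters begin at position -125 from the start. Some members have other plasma protein genes beside them: AFP and AFM, of the albumin family, follow ALB on chromosome 4, FETUB, HRG and KNG1 follow AHSG on chromosome 3, and ORM1 lies near AMBP on chromosome 9.

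Control siRNA transfection without Wnt3a lowered every member. The question of this comparison is what the transfection itself did, apart from any target. All 10 members fell, 10 of 10 called lower where 10.1% of all genes were called lower and 22.3% in either direction. The median difference of the members was -2.32 and that of all genes tested -0.03. ALB fell by 1.65 on the log2 scale, 3.13-fold, from 9.41 ± 0.38 to 7.76 ± 0.09 (adjusted p = 0.000894). AHSG had the largest fall, 3.49 on that scale (adjusted p = 0.00187), followed by GC with -3.45, SERPINA7 with -3.31 and TF with -3.01. RBP4 had the smallest, at -1.38 (adjusted p = 0.000606). In counts made for the members only, every one was lower on 3 of 3 slides. For 9 of 10, all but VTN, the arrays of NT and siCTRL did not overlap. The size differed between slides: for AHSG it was -5.72, -3.69 and -1.05 and for TTR -3.93, -2.24 and -1.02 on slides 1, 2 and 3. With the slide as a block, 10 of 10 were called. The calls, though not the direction, depended on replicate 1. Without replicate 1 of every group 0 of 10 were called (0.945% of all genes), and without replicate 2 there were 6 (8.93%). Slides 2 and 3 are what is left without replicate 1, and ALB differed there by -1.79 and -1.22, beside -1.93 on slide 1. TTR was lost without any 1 of NT replicate 1 and the siCTRL replicates 1, 2 and 3, VTN without NT replicate 1 or siCTRL replicate 3, and HPX without NT replicate 1, which left 7 to 9 called. Fitted on these groups alone, 5 passed.

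With Wnt3a present in both groups, control siRNA transfection lowered 7 of 10 members, where 3.59% of all genes were called lower and 9.04% in either direction. ALB fell by 2.09 on the log2 scale, 4.25-fold (adjusted p = 0.00162), and SERPINA7 by 3.09 (adjusted p = 0.00572). AHSG (-3.40), TF (-3.03), GC (-2.64), AMBP (-1.28) and RBP4 (-1.06) were the other genes called. TTR, at -1.16 with a 95% interval of -2.65 to 0.34, VTN, at -1.06, and HPX, at -1.34, were lower without passing. Counted for the members only, all 10 were lower on 3 of 3 slides, and in 10 of 10 the arrays did not overlap. The median of the members was -1.71 and that of all genes -0.02. With the slide as a block 7 were called. Without replicate 1 of every group 0 of 10 were called, without replicate 2 there were 4 and without replicate 3 there were 4. Leaving out 1 array gave 2 without NT_WNT3A replicate 1, 2 without siCTRL_WNT3A replicate 2, 3 without NT_WNT3A replicate 3 and 5 without siCTRL_WNT3A replicate 1 or replicate 3, and fitted on these groups alone 0 passed, where 1 gene of all did. Some leave-out counts here and below have no share of all genes beside them. In those, lost member calls cannot be told from a general loss of calls.

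All 10 members also fell with FZD8_CRD alone. The comparison asks what the Wnt-binding domain did to cells given no Wnt3a. The count was 10 of 10, where 22.2% of all genes were called lower and 41.9% in either direction, a background in which a large share of the array had moved. The median of the members was -2.43 and that of all genes -0.09. SERPINA7 fell by 4.38 on the log2 scale, 20.8-fold, from 1.27 ± 1.25 to -3.11 ± 1.11 (adjusted p = 9.96e-06). TF fell by 4.14 (adjusted p = 9.36e-05) and ALB fell by 1.81 (3.51-fold, adjusted p = 0.000104), while AHSG was at -4.07 and GC at -3.84. RBP4 had the smallest fall, -1.20 (adjusted p = 0.000564). ALB was lower on 3 of 3 slides, at -1.81, -2.15 and -1.47, as were 7 of the members. TTR, HPX and VTN were lower on slides 1 and 2 and higher on slide 3, where FZ8CRD replicate 3 stood: TTR differed by -5.01, -3.70 and 1.46, HPX by -4.61, -3.50 and 0.75 and VTN by -2.99, -1.68 and 0.16. Without that array 10 of 10 were still called, with TTR at -3.66 and HPX at -3.39 in place of -2.41 and -2.45. The slide as a block left 10 called. TTR was lost without FZ8CRD replicate 1, FZ8CRD replicate 2 or NT replicate 1, and VTN also without NT replicate 1 (8 to 9 called), while TTR, VTN and HPX were lost, and 7 passed, without replicate 1 or replicate 2 of every group and in a fit on these groups alone. NT is the control of this comparison and of the control siRNA comparison, so the falls in them are not independent.

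FZD8_CRD with Wnt3a in both groups lowered 4 members, ALB, AHSG, RBP4 and SERPINA7, where 18.9% of all genes were called lower and 37.2% in either direction. SERPINA7 fell by 2.64 on the log2 scale (adjusted p = 0.00169), AHSG by 2.47 (adjusted p = 0.0112), ALB by 1.07 (adjusted p = 0.01) and RBP4 by 0.73 (adjusted p = 0.0235), each lower on 3 of 3 slides. TF was at -1.53 (adjusted p = 0.0945), also lower on 3 of 3 slides. TTR and HPX, the carriers of thyroid hormone and of heme, had differences of the other sign, 1.41 (95% interval -0.08 to 2.91) and 0.84 (-0.46 to 2.14), higher on 3 of 3 slides without passing (adjusted p = 0.133 and 0.317). VTN (-0.12), AMBP (-0.44) and GC (-0.34) did not pass and differed in sign between slides. The median of the members was -0.59 and that of all genes -0.08. When FZ8CRD replicate 3, which is in neither group, was left out of the shared estimate of the spread, TTR was called higher with an adjusted p of 0.0192 (0.0105 to 0.498 over the alternatives), and with the slide as a block TF was called as well, which gave 5 members. The count was 0 without replicate 1 of every group and 1 without NT_WNT3A replicate 1 or NT_WNT3A replicate 3. RBP4 was lost without FZ8CRD_WNT3A replicate 1 or replicate 2 (3 called), TF was gained without NT_WNT3A replicate 2 (5 called) or replicate 2 of every group (5 called), and without replicate 3 of every group ALB and RBP4 were lost and TTR gained (3 called). A fit on these groups alone, which gave the 0.0105 for TTR, called TTR higher and lost ALB (4 called).

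CTNNB1 siRNA was set against control siRNA to ask what the loss of beta-catenin did in transfected cells. Without Wnt3a all 10 members had higher means in siCTNNB1, and all 10 were higher on 3 of 3 slides, but 1 of 10 was called, where 4.4% of all genes were called higher and 10.6% in either direction. RBP4, the retinol carrier, rose by 0.98, 1.97-fold, from 6.39 ± 0.04 to 7.36 ± 0.17 (adjusted p = 0.0133), with 1.03, 0.76 and 1.15 on slides 1, 2 and 3. The uncalled differences ran from 0.33 for AHSG to 1.56 for GC, whose 95% interval was 0.04 to 3.08 (adjusted p = 0.205). ALB differed by 0.76 (interval 0.11 to 1.41, adjusted p = 0.136) and SERPINA7 by 1.44 (adjusted p = 0.147). At an unadjusted p under 0.05 there were 4 members and 5585 of all 24648 genes. The median of the members was 0.88 and that of all genes -0.03. The slide as a block left 1 called, and a fit on these groups alone gave 7. The count was 0 without replicate 1 or replicate 2 of every group, 0 without siCTNNB1 replicate 3, and 0 when the arrays were scaled to spike-in probes.

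With Wnt3a in both groups, CTNNB1 siRNA again went with higher means for all 10 members, and 1 was called, where 4.08% of all genes were called higher and 10.6% in either direction. Here ALB rose, by 1.19 on the log2 scale, 2.28-fold, from 6.61 ± 0.47 to 7.80 ± 0.49 (adjusted p = 0.0156), with 0.37, 1.78 and 1.42 on slides 1, 2 and 3. RBP4 was at 0.71 (adjusted p = 0.0734), GC at 1.58 and SERPINA7 at 1.48, while AHSG (0.17) and VTN (0.17) were the 2 members not higher on every slide, and both were below 0 with scaling to spike-in probes. The thresholds of the study are p under 0.01 with a fold above 1.5 or below 0.7, read here as an unadjusted p. By them ALB and RBP4 were called, 2 of 10 where 6.46% of all genes passed. The median of the members was 0.81 and that of all genes -0.01, and the slide as a block left 1 called. The ALB call was lost, and the count was 0, without replicate 2 or replicate 3 of every group, without siCTRL_WNT3A replicate 2, without siCTNNB1_WNT3A replicate 2 or 3, and with scaling to spike-in probes. Without siCTNNB1_WNT3A replicate 1 it was 2. Fitted on these groups alone, ALB was lost and HPX gained (1 called). That RBP4 was called without Wnt3a and ALB with it does not show that the genes differed in this, and no interaction of Wnt3a with CTNNB1 siRNA was called.

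**Figure D2:**
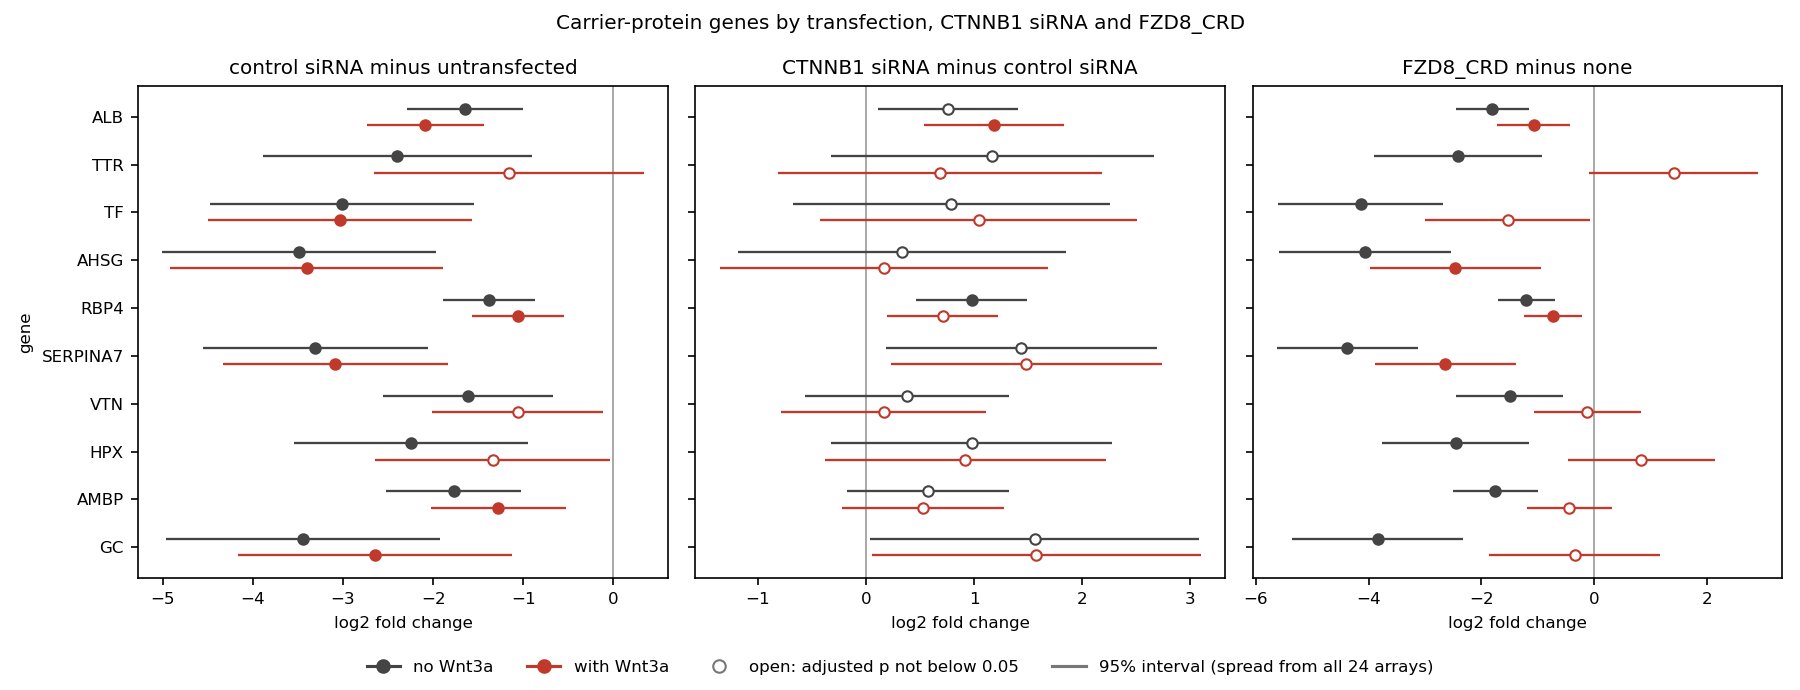
Log2 fold change of each of the 10 genes for control siRNA against no transfection, CTNNB1 siRNA against control siRNA, and FZD8_CRD against none, without Wnt3a (dark) and with it (red). Lines give the 95% interval and open circles an adjusted p that is not below 0.05; the falls with control siRNA and FZD8_CRD without Wnt3a are filled for all 10 genes, and TTR with FZD8_CRD and Wnt3a lies at 1.41.

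Wnt3a on untransfected cells left 0 of 10 members called by limma, where 5.6% of all genes were called, and 5 of the 10 had an unadjusted p under 0.05, as did 5234 of the 24648 genes. All 10 means were lower with Wnt3a, with a median of -1.08 against 0.01 for all genes, and AHSG, at -0.36, changed sign in 4 of 22 alternatives. The 2 largest differences were those of GC, -1.71 (95% interval -3.23 to -0.19, adjusted p = 0.177), and TF, -1.25 (adjusted p = 0.333). ALB was at -0.71 (interval -1.36 to -0.07, adjusted p = 0.186). The slides differed in direction: on slides 1 and 2 all 10 members were lower with Wnt3a, and on slide 3 all 10 were higher. For GC the differences were -2.77, -3.23 and 0.88 and for ALB -0.58, -1.66 and 0.10 on slides 1, 2 and 3. The NT array of slide 3 had the lowest levels of its group for all 10 genes, and the NT_WNT3A array of slide 2 the lowest of its own. Over all genes, deviations from the group mean correlated between NT and NT_WNT3A at -0.06 on the slide with the lowest value. In the other comparisons of 2 groups the lowest such value ran from 0.28 to 0.42, so pairing by slide held less well here. The slide as a block left 0 called. Without replicate 3 of every group 8 were called (25.7% of all genes), without NT replicate 3 there were 4 (11.4%) and without NT_WNT3A replicate 3 there were 2 (12.9%).

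After control siRNA, Wnt3a left 0 of 10 members called by limma, where 2.11% of all genes were called, with 1 of 10 at an unadjusted p under 0.05, as were 3461 of all genes. That gene was ALB, which was at -1.15, 2.22-fold lower, with a 95% interval of -1.80 to -0.51 and an adjusted p of 0.0584. ALB was lower on 3 of 3 slides, at -0.92, -1.59 and -0.95, and its arrays did not overlap. With the slide as a block ALB passed (adjusted p = 0.0245, where the alternatives ran from 0.0245 to 0.436), and by the thresholds of the study it was the 1 member called, where 2.75% of all genes passed. Without FZ8CRD replicate 3, which is in neither group, the count was also 1, and fitted on these groups alone it was 3. TF was at -1.27 (interval -2.73 to 0.20) and GC at -0.90, while TTR was at 0.03 and changed sign in 1 of 22 alternatives. The members other than TTR were lower on 3 of 3 slides, with a median over all 10 of -0.49 against 0.02 for all genes.

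After CTNNB1 siRNA, 0 of 10 members were called by limma, where 0.0406% of all genes were called, and 2 of 10, ALB and RBP4, had an unadjusted p under 0.05, as did 2575 of all genes. ALB was at -0.72 (95% interval -1.37 to -0.08, adjusted p = 0.415) and RBP4 at -0.64 (interval -1.16 to -0.13, adjusted p = 0.353), each lower on 3 of 3 slides. The median of the members was -0.68 and that of all genes 0.03. All 10 means were lower with Wnt3a, HPX changing sign in 1 of 22 alternatives, and slide 1 had the largest difference for all 10, as for TF with -2.27, -0.29 and -0.48. The slide as a block left 0 called.

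In the presence of FZD8_CRD, Wnt3a raised 2 of 10 members, where 4.36% of all genes were called higher and 8.29% in either direction. TTR rose by 2.62, 6.13-fold, from 2.62 ± 2.16 to 5.24 ± 0.06 (adjusted p = 0.0283), and HPX rose by 2.13, 4.39-fold, from -1.54 ± 1.65 to 0.60 ± 0.08 (adjusted p = 0.0385). Both rest on slides 1 and 2: TTR differed by 3.64, 4.09 and 0.12 and HPX by 2.90, 3.31 and 0.19 on slides 1, 2 and 3. GC was at 1.79 (95% interval 0.27 to 3.31, adjusted p = 0.151), TF at 1.36, ALB at 0.03 and RBP4 at -0.23, and none of these passed. The members had a median of 0.95 against 0.02 for all genes, and 9 of 10 means were higher with Wnt3a, of which that of ALB changed sign in 5 of 22 alternatives. Without FZ8CRD replicate 3, TTR (3.86), HPX (3.07), GC (2.61) and TF (2.10) were called, 4 of 10 where 19.9% of all genes were, each higher on the 2 slides left. ALB (0.00) and RBP4 (-0.28) were not. With the slide as a block TTR and HPX were called. Over the alternatives the adjusted p ran from 2.21e-05 to 0.666 for TTR and from 0.000302 to 0.683 for HPX. Without replicate 3 of every group 3 were called, with GC added. The count was 0 without FZ8CRD replicate 1 or 2, without any 1 of the 3 FZ8CRD_WNT3A arrays, without replicate 1 or 2 of every group, with no filter on dim probes and in a fit on these groups alone, and it was 1 with normexp background correction and without the trend in the variance.

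**Figure D3:**
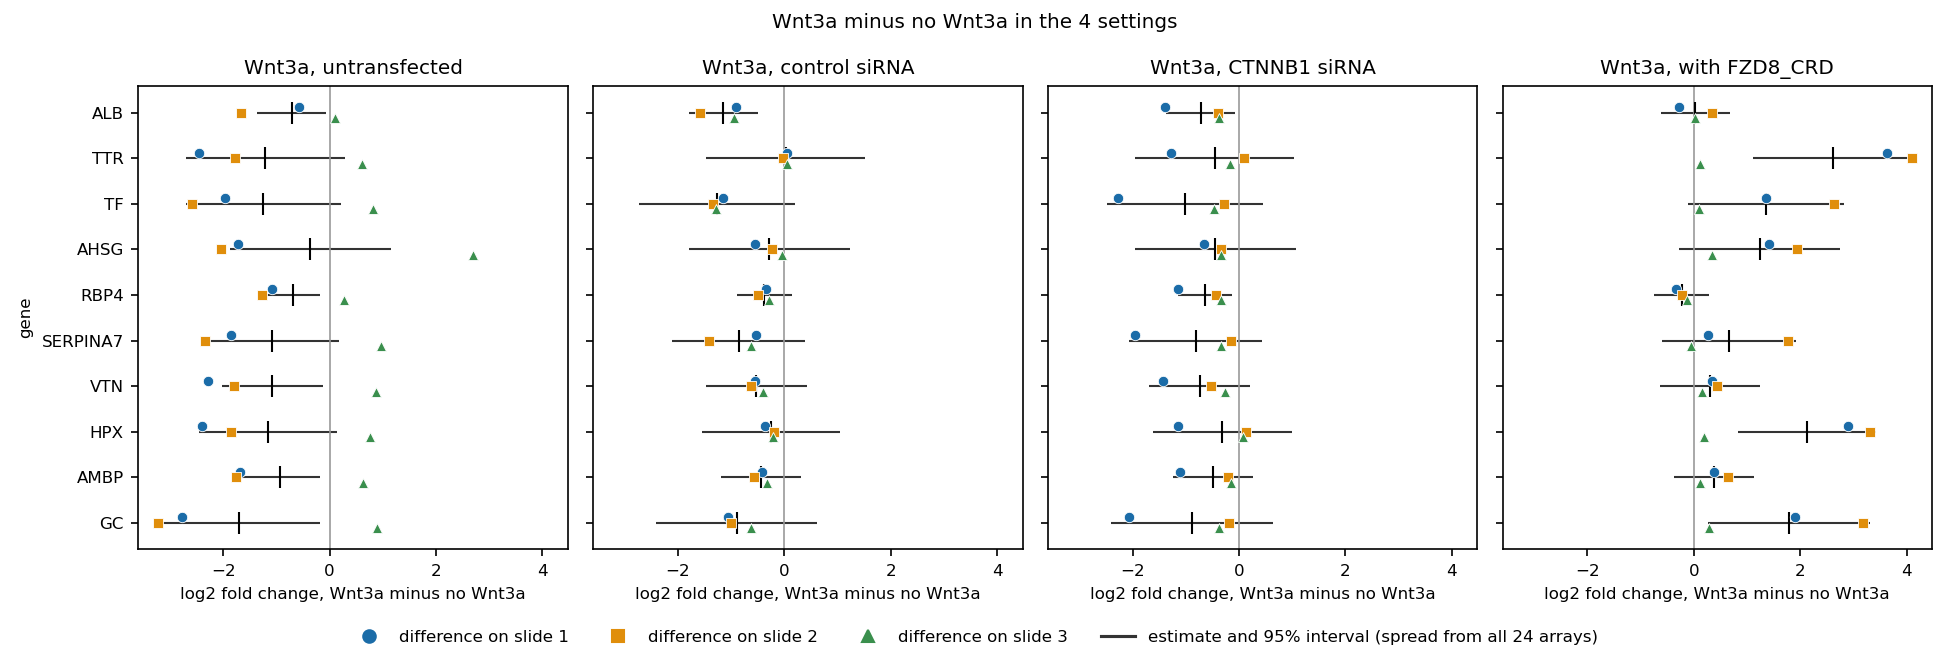
Wnt3a minus no Wnt3a for each of the 10 genes in the 4 settings, as log2 fold change, with the difference on each slide as a symbol and the estimate with its 95% interval as a black line. On slide 3 the untransfected differences are above 0 for all 10 genes, and the differences of TTR and HPX with FZD8_CRD are 0.12 and 0.19 on slide 3.

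The differences between these responses were tested as interactions. The Wnt3a difference after control siRNA minus that in untransfected cells was called for 0 of 10 members by limma, where 0.0% of all genes were called, and 0 had an unadjusted p under 0.05, against 1183 of all genes. TTR had the largest estimate, 1.24 (95% interval -0.88 to 3.35), and ALB was at -0.44 (-1.36 to 0.48). For CTNNB1 siRNA against control siRNA, 0 of 10 were called, where 0.0162% of all genes were, again with 0 at an unadjusted p under 0.05, against 822 of all genes. ALB was at 0.43 (interval -0.49 to 1.34) and RBP4 at -0.27 (-0.99 to 0.46), so these arrays bound the dependence of the Wnt3a difference on CTNNB1 siRNA only loosely. For FZD8_CRD against none, 0 of 10 were called, where 0.073% of all genes were, and 6 of 10 had an unadjusted p under 0.05, as did 3128 of all genes. All 10 estimates were above 0, with a median of 1.67 against 0.01 for all genes, but the slides differed in direction. On slides 1 and 2 all 10 were above 0, and on slide 3 all 10 were below 0, from -0.08 for ALB to -2.34 for AHSG. TTR was at 3.82 (interval 1.71 to 5.94, adjusted p = 0.12), GC at 3.50 (adjusted p = 0.155) and HPX at 3.29 (adjusted p = 0.125), each above 0 on slides 1 and 2 and below 0 on slide 3. These 3 passed the thresholds of the study, where 2.97% of all genes did. Without FZ8CRD replicate 3 there were 4 called, TTR at 5.07, GC at 4.31, HPX at 4.23 and TF at 3.34, where 7.75% of all genes were. Without NT replicate 3 there were 5 (2.41%), without replicate 3 of every group 8 (12.1%), and with scaling to spike-in probes 2. The slide as a block left 0 called in all 3 interactions.

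**Figure D4:**
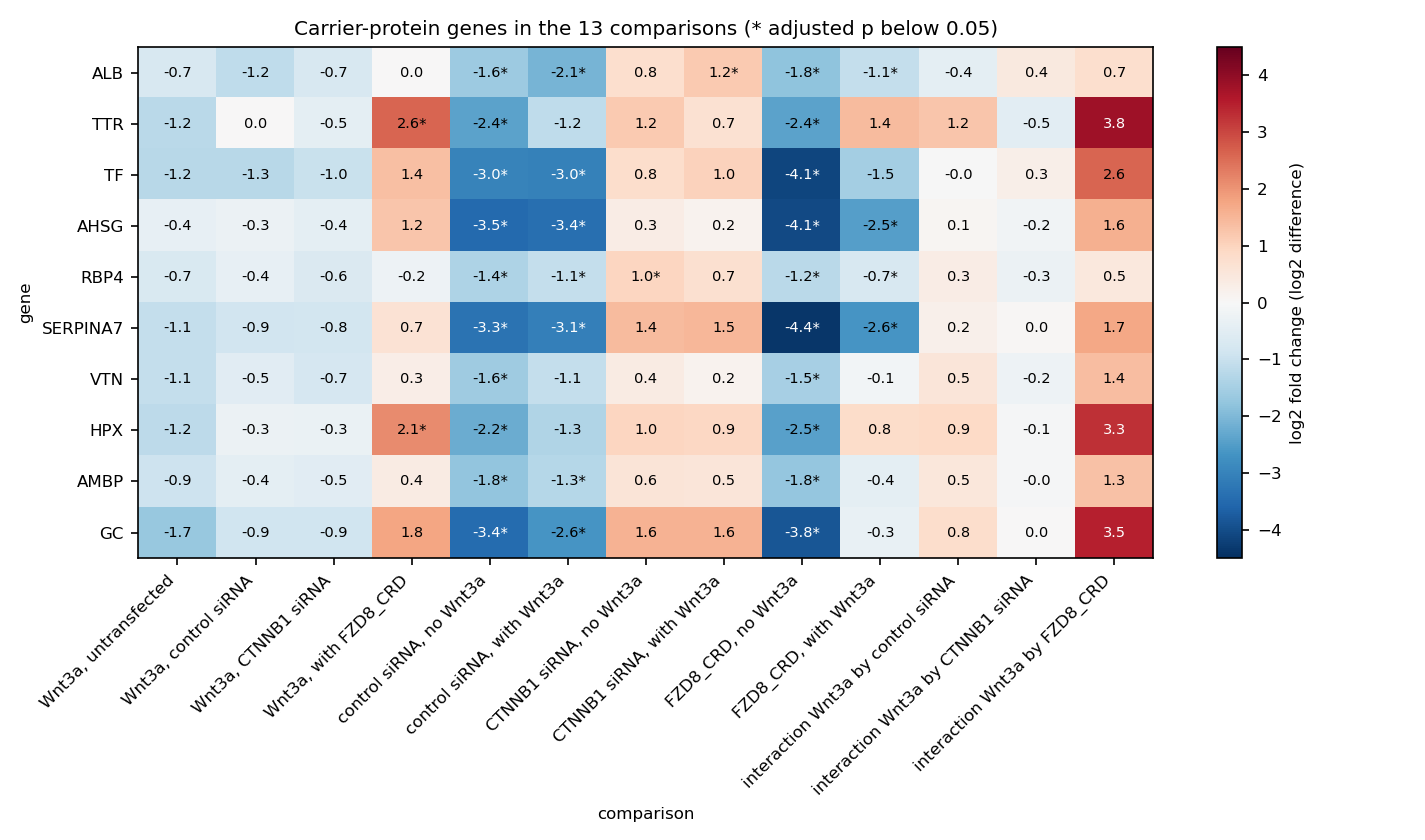
Log2 difference of each of the 10 genes (vertical axis) in each of the 13 comparisons (horizontal axis), with colour for the value and a star where the adjusted p was below 0.05. The columns for control siRNA and FZD8_CRD without Wnt3a are starred for all 10 genes, and those for the 3 interactions for none.

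Other carriers and plasma proteins were followed as lists. For comparison with their counts, of all 24648 genes tested 3022 rose and 2479 fell with control siRNA, and 4851 rose and 5471 fell with FZD8_CRD, both without Wnt3a. Of 17 other carrier proteins, 10 fell with control siRNA without Wnt3a and 13 fell with FZD8_CRD alone, where 1 rose. AFM, an albumin relative that carries vitamin E, had differences of -4.33 with control siRNA and -5.57 with FZD8_CRD, KNG1 of -4.31 and -4.65, and HRG, histidine-rich glycoprotein, of -2.69 and -2.69, all called. AFM was well above background on 2 of 3 arrays in FZ8CRD and on 2 of 3 in siCTRL_WNT3A. AFP, the fetal member of the albumin family, lies beside AFM and was named for that place after its values were seen: it rose with FZD8_CRD, by 1.01, and was at -0.36 with control siRNA, where it did not pass. FETUB, next to AHSG, passed in neither (-0.14 and 0.11). AFM also rose with CTNNB1 siRNA, by 2.23 without Wnt3a and 2.24 with it. With CTNNB1 siRNA without Wnt3a, 2 of the 17 rose and 2 fell, and with Wnt3a 1 rose and 1 fell, where 1085 of all genes rose and 1519 fell without Wnt3a and 1006 and 1602 with it.

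Of 10 apolipoproteins tested, 7 fell with control siRNA and 9 with FZD8_CRD, both without Wnt3a, with medians of -1.03 and -1.90. APOC3, a regulator of triglyceride clearance, was at -2.62 and -4.07, and APOA1, the main protein of HDL, at -2.18 and -2.76. Of 22 acute-phase proteins and protease inhibitors, 19 fell with control siRNA and 21 with FZD8_CRD, with medians of -1.63 and -1.93. ITIH1 was at -3.38 and -3.66 and SERPINC1, the gene of antithrombin, at -3.12 and -2.84. With Wnt3a in the presence of FZD8_CRD the lists held genes of both signs: APOA1 rose by 2.22 and SERPINC1 by 3.02, while APOB, the protein of VLDL and LDL, fell by 2.15 and LBP by 1.69. With FZD8_CRD against none in cells given Wnt3a, 3 apolipoproteins and 14 acute-phase genes fell, and with control siRNA 4 and 14 fell in such cells, where 4669 and 885 of all genes fell.

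Among 23 hepatocyte transcription factors, 10 fell with control siRNA and 17 with FZD8_CRD, both without Wnt3a, and 0 rose in either. ONECUT1, also called HNF6, was at -2.94 and -4.47, PROX1 at -2.45 and -2.84, and NR1H4, the bile acid receptor, at -2.30 and -3.61. ONECUT1 rose with CTNNB1 siRNA, by 1.46 without Wnt3a and 1.75 with it. With Wnt3a on untransfected cells, where 643 of all genes fell, 3 fell, NR5A2 (-1.29), PPARA (-0.55) and RXRA (-0.43). Of 18 genes of the secretory pathway, which exports plasma proteins, 3 rose and 0 fell with control siRNA, and 6 rose and 2 fell with FZD8_CRD. Of these called genes SEC23A, a coat protein of export vesicles, had the largest difference, 0.47 with FZD8_CRD. With CTNNB1 siRNA without Wnt3a 6 of the 18 fell, where 1519 of all genes did, LMAN1, a cargo receptor, by 0.67 and MCFD2, its partner, by 0.61.

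Of 27 receptors and partners of the carriers tested, 4 rose and 5 fell with control siRNA, and 6 rose and 9 fell with FZD8_CRD, both without Wnt3a, beside the counts over all genes given above. ASGR1, a subunit of the hepatocyte receptor that takes up asialoglycoproteins, was at -3.04 and -4.39, and ASGR2, the other subunit, at -1.98 and -2.64. FCGRT, the receptor that returns albumin to the circulation, fell with control siRNA by 1.33. DIO1, which activates thyroid hormone, fell with FZD8_CRD and was not well above background on the 3 FZ8CRD arrays, and ITGB3, a chain of the vitronectin receptor, rose by 2.06.

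Markers of Wnt signalling, of mesenchymal cells and of division moved with some of the groups. With Wnt3a on untransfected cells, where 738 of all genes rose, 5 of 10 Wnt feedback genes rose, among them TCF7 (1.68), LEF1 (1.12) and RNF43 (0.73). The interaction of Wnt3a with CTNNB1 siRNA was called for RNF43 (-1.23). With CTNNB1 siRNA 5 of the 10 fell without Wnt3a, TCF7 by 1.15, and 7 with it, TCF7 by 2.08, and with FZD8_CRD alone 4 fell and 2 rose, RNF43 at -1.30 and LEF1 at 1.00. After control siRNA 5 of the 10 feedback genes rose with Wnt3a, where 269 of all genes rose, and after CTNNB1 siRNA limma called 0, with 1 at an unadjusted p under 0.05, where 9 of all genes rose. With FZD8_CRD present, where 1074 of all genes rose and 970 fell, 2 rose with Wnt3a, TCF7 (1.64) and RNF43 (0.81), and 2 fell, DKK1 (-0.88) and APCDD1, which was not well above background on the FZ8CRD_WNT3A arrays. Of 10 mesenchymal markers 7 rose with Wnt3a on untransfected cells, COL1A1 by 1.86 and FAP by 1.78. With Wnt3a 4 of the 10 rose after control siRNA and 6 in the presence of FZD8_CRD, COL1A1 there by 2.65, the setting in which TTR and HPX rose. After CTNNB1 siRNA limma called 0 of the 10, with 1 at an unadjusted p under 0.05. With CTNNB1 siRNA 5 fell without Wnt3a and 8 with it. With control siRNA 1 of the 10 rose and 3 fell without Wnt3a, and 0 rose and 2 fell with it. With FZD8_CRD alone 2 rose and 3 fell. In the comparisons of control siRNA and FZD8_CRD without Wnt3a, VIM was the highest (0.77 and 1.25) and COL3A1 the lowest (-2.11 and -2.82). The summed signal of the mesenchymal list, whose brightest probe was that of DCN or, on some arrays, ACTA2, was 50.7, 69.7 and 58.5 times the 75th percentile in NT, 98.9, 94.9 and 101 in NT_WNT3A, 45.2, 51.8 and 37.1 in siCTRL, 25.1, 23.1 and 21.3 in siCTNNB1 and 39.5, 37.0 and 32.4 in FZ8CRD. With Wnt3a it was 65.2, 65.0 and 60.0 in siCTRL_WNT3A, 26.4, 26.1 and 25.2 in siCTNNB1_WNT3A and 47.0, 45.9 and 44.8 in FZ8CRD_WNT3A. In siCTNNB1, where RBP4 was higher than in siCTRL, this sum was lower than in siCTRL.

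All 6 cycling markers rose with control siRNA and with FZD8_CRD, both without Wnt3a, where 3022 and 4851 of all genes rose. These are the comparisons in which all 10 carriers fell. With Wnt3a in both groups 5 of 6 rose with control siRNA, where 7 carriers fell and 1342 of all genes rose. With FZD8_CRD 5 of 6 rose in such cells, where 4 carriers fell, TTR and HPX had higher means and 4493 of all genes rose. Without Wnt3a CDK1 rose by 1.09 and 1.82, and MCM2, of the replication helicase, by 1.26 and 1.47. Their summed signal, with the probe of PCNA as the brightest, was 29.9, 36.6 and 44.4 times the 75th percentile in NT, 70.9, 68.6 and 76.2 in siCTRL, 98.0, 105 and 85.5 in FZ8CRD and 65.3, 71.6 and 63.8 in siCTNNB1. With Wnt3a it was 40.6, 59.8 and 40.9 in NT_WNT3A, 66.2, 76.7 and 75.2 in siCTRL_WNT3A, 92.1, 85.3 and 75.2 in siCTNNB1_WNT3A and 88.2, 85.8 and 82.4 in FZ8CRD_WNT3A. Within NT, the array with the lowest sum, replicate 1, had the highest level of every member, and the array with the highest sum, replicate 3, the lowest. Of the 12 hepatocyte markers 11 fell with control siRNA and 11 with FZD8_CRD, both without Wnt3a, where 2479 and 5471 of all genes fell. ALB and TTR are in that list, so its counts in part repeat those of the members. Of the 5 bile duct markers tested 1 fell with control siRNA, SPP1 (-1.06), and with FZD8_CRD alone 1 rose, KRT19 (0.36), and 2 fell. Of the 4 endothelial markers KDR fell with FZD8_CRD alone (-1.51), and of the 4 leukocyte markers CD68 did (-1.27). With FZD8_CRD in cells given Wnt3a, where 4 carriers and 4669 of all genes fell, 7 of the 12 hepatocyte markers fell. Of 10 mesenchymal markers 3 rose and 3 fell there, and of the 5 bile duct markers 2 rose and 2 fell. Of the 4 endothelial markers 1 fell there, and KDR was the lowest at -2.06. With CTNNB1 siRNA SPP1 rose, by 0.93 without Wnt3a and 0.82 with it, CD14 fell by 1.12 and 1.30, PECAM1 fell without Wnt3a by 0.94 and SOX9 fell with it by 0.57. With Wnt3a in the presence of FZD8_CRD, where TTR and HPX rose, KDR fell by 0.99 and CD68 rose by 0.90. The part of dividing or mesenchymal cells in the differences of the carriers was not tested, nor was that of the other lists.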

How the data were processed

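The 24 scanner files were read with the processed signal of Agilent Feature Extraction (10.7.1.1 in the file headers). Per the file headers these intensity values were background-subtracted and corrected for spatial trend in the single Cy3 channel, with no normalization between arrays. The log2 values that the authors deposited beside them were made by shifting each array to its 75th percentile and each probe to its median, and they served as an alternative. Here each array was divided by its own 75th percentile, as the study did, floored at 1.43% of it and put on the log2 scale, and spots marked as outliers were left out. Of 50683 probes, 31067 were well above background on every array of some group, and the brightest probe of each gene was kept, which gave 24648 genes, 16001 with a symbol. Differences were fitted on all of these with limma 3.58.1 (R 4.3.3), with 8 group means and a mean-variance trend, and p was adjusted by Benjamini-Hochberg for each comparison. Tables were made with Python 3.11.15, pandas 2.3.3 and the R package data.table (version 1.17.8), and the figures with matplotlib 3.10.9. The replicate number is the slide: between groups, deviations from the group mean correlated at 0.384 on average for arrays with the same number, so the slide was also fitted as a block. The value for arrays with other numbers, -0.191, largely follows from that one, since the 3 deviations of a group sum to 0. Code was tested on simulated data. Symbols and promoter windows came from RefSeq (GRCh38.p14).

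Genes outside the 10 members were named by fixed lists, at most 4 per list and comparison, by the largest called difference, for their place beside a member, for their likeness to ALB or to the mean of the members over the 24 arrays, or as markers in the checks of labels and arrays. The members and lists were chosen with earlier results of these data known. Not well above background in any group, and so not tested, were APOA4, APOC2, APOF, CRP, CUBN, LGR5, NOTUM, TNFRSF19, DKK4 and WIF1, and RBPR2 was not on the array. Some items withheld for evaluation are not reported here.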

Additional observations from a re-analysis of the deposited data

Results flagged for a closer look

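For 6 members the difference with Wnt3a had opposite signs on every slide in different settings: below 0 on 3 of 3 slides after transfection and above 0 on 3 of 3 slides in the presence of FZD8_CRD. They were picked by these signs, and the share of all genes that meet the rule was not counted. On slide 3, where FZ8CRD replicate 3 stood, their differences with FZD8_CRD ran only from 0.10 for TF to 0.35 for AHSG. The values below are the log2 difference with FZD8_CRD minus that after transfection, and none of these differences was tested. For TF the value was 2.63 against control siRNA (1.36 and -1.27) and 2.38 against CTNNB1 siRNA (1.36 and -1.01). GC gave 2.69 against control siRNA (1.79 and -0.90) and 2.67 against CTNNB1 siRNA (1.79 and -0.88), and AHSG gave 1.52 (1.24 and -0.28) and 1.68 (1.24 and -0.45). VTN, the adhesion protein, gave 0.83 (0.30 and -0.53) and 1.05 (0.30 and -0.74), and AMBP gave 0.82 (0.38 and -0.44) and 0.87 (0.38 and -0.49). HPX, the heme carrier, gave 2.39 against control siRNA (2.13 and -0.25), and after CTNNB1 siRNA its slides differed in sign. Transfected and untransfected cells were not matched in these pairs, so FZD8_CRD and the lack of electroporation cannot be told apart in them. The interactions given above set control siRNA and FZD8_CRD each against untransfected cells without FZD8_CRD.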

How the results depend on the processing

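The counts of members called out of 10 were repeated under other settings, and those that moved by over 1.5 times or from or to 0 are given here. With scaling to 7 spike-in probes, CTNNB1 siRNA gave 0 without Wnt3a and 0 with it, and the interaction of Wnt3a with FZD8_CRD gave 2. For Wnt3a with FZD8_CRD the count was 1 with normexp background correction, 0 with no filter on dim probes, 1 without the trend in the variance and 0 when only the groups compared were fitted. That last setting gave 3 for Wnt3a after control siRNA, 5 for control siRNA without Wnt3a, 0 for control siRNA with Wnt3a and 7 for CTNNB1 siRNA without Wnt3a. The authors' values gave 2 for CTNNB1 siRNA with Wnt3a. The slide as a block gave 1 for Wnt3a after control siRNA. The study's thresholds gave 1 for Wnt3a after control siRNA, 2 for CTNNB1 siRNA with Wnt3a and 3 for the interaction with FZD8_CRD.

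Leaving out 1 array or 1 replicate of every group moved the counts as follows. The share of all genes called is not given beside these ranges, so lost member calls cannot be told from a general loss of calls. For Wnt3a they ran from 0 to 8 in untransfected cells, from 0 to 1 after control siRNA, stayed at 0 after CTNNB1 siRNA, and ran from 0 to 4 with FZD8_CRD. For control siRNA they ran from 0 to 10 without Wnt3a and from 0 to 7 with it, for CTNNB1 siRNA from 0 to 1 and from 0 to 2, and for FZD8_CRD from 7 to 10 and from 0 to 5. For the interactions they were 0 with control siRNA, 0 with CTNNB1 siRNA and 0 to 8 with FZD8_CRD. Leaving out FZ8CRD replicate 3 in comparisons that do not hold it was chosen after seeing the data.

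Over 3140 member values under all alternatives, 130 calls were lost, 61 gained and 0 reversed in sign, and 80 values that were not called changed sign. Scaling to spike-in probes moved the median of all genes to between -0.46 and 0.56 and changed the share of calls that were higher: for Wnt3a from 53.4% to 8.30% in untransfected cells, from 51.7% to 96.4% after control siRNA and from 52.5% to 68.9% with FZD8_CRD. For control siRNA the share went from 54.9% to 7.50% without Wnt3a and from 60.3% to 49.5% with it, for CTNNB1 siRNA with Wnt3a from 38.6% to 6.24%, for FZD8_CRD from 47.0% to 7.49% and from 49.0% to 28.9%, and for the interaction with FZD8_CRD from 27.8% to 85.7%. Quantile normalization changed it for Wnt3a after CTNNB1 siRNA from 90% to 64.3% and for that interaction from 27.8% to 50.0%. For that interaction normexp gave 9.09% and a floor of 1 intensity unit 0%, and for the interaction with CTNNB1 siRNA normexp moved the share from 25% to 0%. Some of these shares rest on few calls: 10 for Wnt3a after CTNNB1 siRNA, 18 for the interaction with FZD8_CRD and 4 for that with CTNNB1 siRNA. The cause was not tested. Signals near background can compress differences, and of the members AHSG came nearest to the floor.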
